A study of Mus musculus with 6 samples.

Results

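Type I interferon response genes are the genes that cells switch on when interferon alpha or beta reaches them. The 37 genes described here were taken by symbol from the deposited expression table, which lists 35275 genes. Each symbol was found, and 35 of the 37 reached a mean of at least 1 FPKM (fragments per kilobase of gene, scaled to the mapped total of the library) over the 6 libraries, as did 11252 of all genes. Ifi44 and Cxcl10 lay below that level and were not part of the test across genes.

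The libraries hold RNA of B cells from mouse spleens. All mice were C57BL/6, 6 to 8 weeks old, and had received sheep red blood cells, an antigen that elicits a T cell-dependent antibody response, 8 days before the spleen was taken. 3 libraries are labelled wild type (WT) and 3 are labelled CD40LΔ5, an alteration of CD40 ligand that the labels do not describe further, and there was no group without the antigen. B cells were enriched with a magnetic pan-B kit, and the labels do not say whether a library came from 1 animal, so the p-values measure the spread between these libraries, which may be technical.

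The deposited sources do not place the libraries in groups alike. The authors' deposited table of group means has a MUT and a WT column. To within 3.33e-08 FPKM, MUT is the average of CD40LΔ5 replicate 2 with WT replicates 1 and 2, as the labels name them, and WT that of WT replicate 3 with CD40LΔ5 replicates 1 and 3. Labels and table thus agree for 2 of 6 libraries, WT replicate 3 and CD40LΔ5 replicate 2. Libraries are named here by their label, both groupings are reported, and no direction can be read as that of a genotype. Reads on genes numbered 24320080 to 27866611 per library. The B cell markers Cd79a, Cd79b and Ms4a1 were abundant throughout, with Cd79a at 1510 to 1999 FPKM, and the 12 B cell markers summed to 5463 to 6494 FPKM.

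Interferon alpha and beta bind a receptor of the chains IFNAR1 and IFNAR2, and the kinases JAK1 and TYK2 then phosphorylate STAT2, which joins IRF9 in the complex ISGF3. This complex binds the interferon-stimulated response element (ISRE) in the promoters of target genes. The targets include sensors of viral nucleic acid, proteins that block viral translation, replication or release, the ubiquitin-like modifier ISG15, and IRF7, which drives further interferon production, while USP18 dampens the receptor. In B cells these genes are held at a basal level by tonic interferon and rise when interferon or ligands of endosomal Toll-like receptors are sensed.

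The promoters of 4 members show the element through which this complex acts. Sequences are from RefSeq on GRCm38.p6 and cover the 250 bases before the annotated start site, read 5′ to 3′ on the strand of the gene. Capitals mark each match of the ISRE core searched for, which is GAAA, any 2 bases and GAAA again, or TTTC, any 2 bases and TTTC, which is the same core on the opposite strand. Isg15 is shown for its run of overlapping cores, Oas1a for a pair close to the start, and the neighbours Ifit1 and Ifit3 for a pair each on the opposite strand.
Isg15, chr4:156200819-156201068, minus strand: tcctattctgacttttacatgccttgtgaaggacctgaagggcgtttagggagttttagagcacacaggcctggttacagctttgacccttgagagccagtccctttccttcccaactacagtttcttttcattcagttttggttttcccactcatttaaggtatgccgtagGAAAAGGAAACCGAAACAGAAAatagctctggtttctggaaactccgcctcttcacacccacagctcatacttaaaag
Oas1a, chr5:120907526-120907775, minus strand: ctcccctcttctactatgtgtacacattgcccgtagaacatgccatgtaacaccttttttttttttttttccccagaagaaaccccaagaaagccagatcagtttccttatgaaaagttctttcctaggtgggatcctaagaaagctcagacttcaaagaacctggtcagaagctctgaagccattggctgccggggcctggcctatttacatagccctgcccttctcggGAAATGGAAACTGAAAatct
Ifit1, chr19:34640639-34640888, plus strand: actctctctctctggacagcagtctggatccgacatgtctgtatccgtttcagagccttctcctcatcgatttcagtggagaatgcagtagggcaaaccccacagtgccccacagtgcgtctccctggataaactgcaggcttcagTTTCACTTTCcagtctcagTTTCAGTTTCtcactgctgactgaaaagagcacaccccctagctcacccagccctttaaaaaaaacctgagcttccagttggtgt
Ifit3, chr19:34583279-34583528, plus strand: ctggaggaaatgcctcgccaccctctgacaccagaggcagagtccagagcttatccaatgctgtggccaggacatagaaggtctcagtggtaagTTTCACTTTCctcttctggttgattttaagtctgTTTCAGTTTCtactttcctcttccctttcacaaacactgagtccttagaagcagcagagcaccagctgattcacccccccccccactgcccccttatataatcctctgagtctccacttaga
In the Isg15 promoter 3 overlapping matches began 78, 72 and 66 bases before the start, and in that of Oas1a 2 overlapping matches began 20 and 14 bases before it. The pairs lay at 104 and 85 bases in Ifit1 and at 156 and 122 bases in Ifit3.

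RefSeq windows from 250 bases before to 50 bases after the start were at hand for 27 of the 37 members. Dhx58, Ifi27l2a, Mx1, Mx2, Oas2, Parp14, Parp9, Rtp4, Usp18 and Zbp1 had no entry. On either strand and with overlaps allowed, that core was found in 15 of the 27 members (55.6%), against 3.99% of all 27025 genes with such a window and 3.96% of the 7989 tested genes that had one. The element TTCNNNGAA, the GAS site of interferon-gamma targets, reads the same on both strands and was found in 5 of 27 members (18.5%) against 9.55% of all genes with a window. Among the 12 members without a match of the ISRE letters were Irf7, Irf9, Ifit2, Oasl1, Oasl2, Xaf1 and Sp100. A match describes letters only, and its absence says only that these letters are not in this window.

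**Figure D1:**
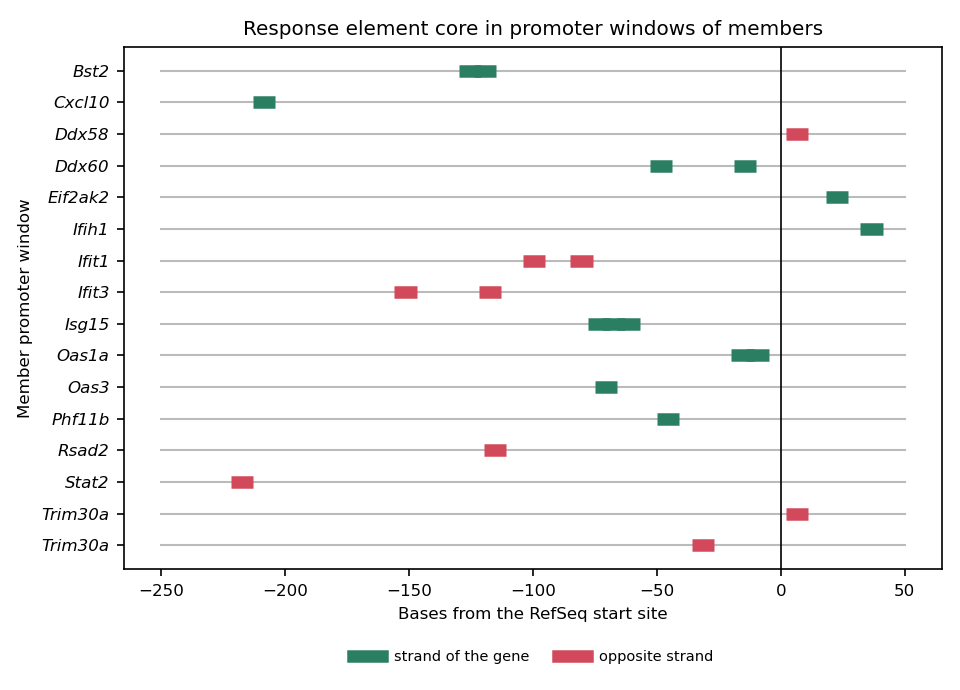
Matches of the ISRE core (GAAA, any 2 bases, GAAA) on the strand of the gene (green) or the opposite strand (red) in the RefSeq windows of the 15 members that hold one, by distance in bases from the start site (0). Trim30a has 2 windows with a match. The matches of Isg15, Ifit1, Ifit3 and Oas1a lie before the start, and those of Eif2ak2, Ifih1, Ddx58 and 1 window of Trim30a lie after it.

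Most of the 37 genes followed one another closely over the 6 libraries. Isg20 and Bst2 did so least among tested members, with Pearson's r of -0.37 and 0.67 against the members' mean profile, which includes them. CD40LΔ5 replicate 2 held the highest value of 35 of the 37, the exceptions being Isg20 (highest in CD40LΔ5 replicate 3) and Cxcl10 (highest in WT replicate 1). Among tested genes this was 34 of 35 members (97.1%) against 30.1% of all 11252, so that this library was often the highest for genes in general and more often so for the members. Its value was a median of 1.75 times that of the next library (range 1.01 to 3.17) over these 35 genes, and more than 1.5 times in 25 of them. WT replicates 1 and 2 came next. In 26 of the 37 members the order was CD40LΔ5 replicate 2 first, then both WT replicates 1 and 2, then the other 3, an order chosen for description after the values were seen. Among tested genes 25 of 35 members and 6.12% of all genes had it.

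Measured against the mean of WT replicate 3 and CD40LΔ5 replicates 1 and 3, CD40LΔ5 replicate 2 stood at a median of 2.33 times (range 0.726 to 5.93) and the mean of WT replicates 1 and 2 at 1.36 times (range 0.896 to 2.29) over the 37 genes. On the log2(FPKM + 1) scale the median member lay 0.81 above its own mean in CD40LΔ5 replicate 2. It lay 0.03 and 0.05 above that mean in WT replicates 1 and 2. It lay at -0.37 in WT replicate 3, -0.37 in CD40LΔ5 replicate 1 and -0.22 in CD40LΔ5 replicate 3, while the median of all tested genes stayed between -0.050 and 0.054 in every library. Summed over the 37 genes, the members took 341 of every 100000 reads in CD40LΔ5 replicate 2. That share was 206, 213 and 163 in WT replicates 1, 2 and 3, and 175 and 182 in CD40LΔ5 replicates 1 and 3. Libraries of both labels thus stood among the 3 higher and among the 3 lower ones.

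**Figure D2:**
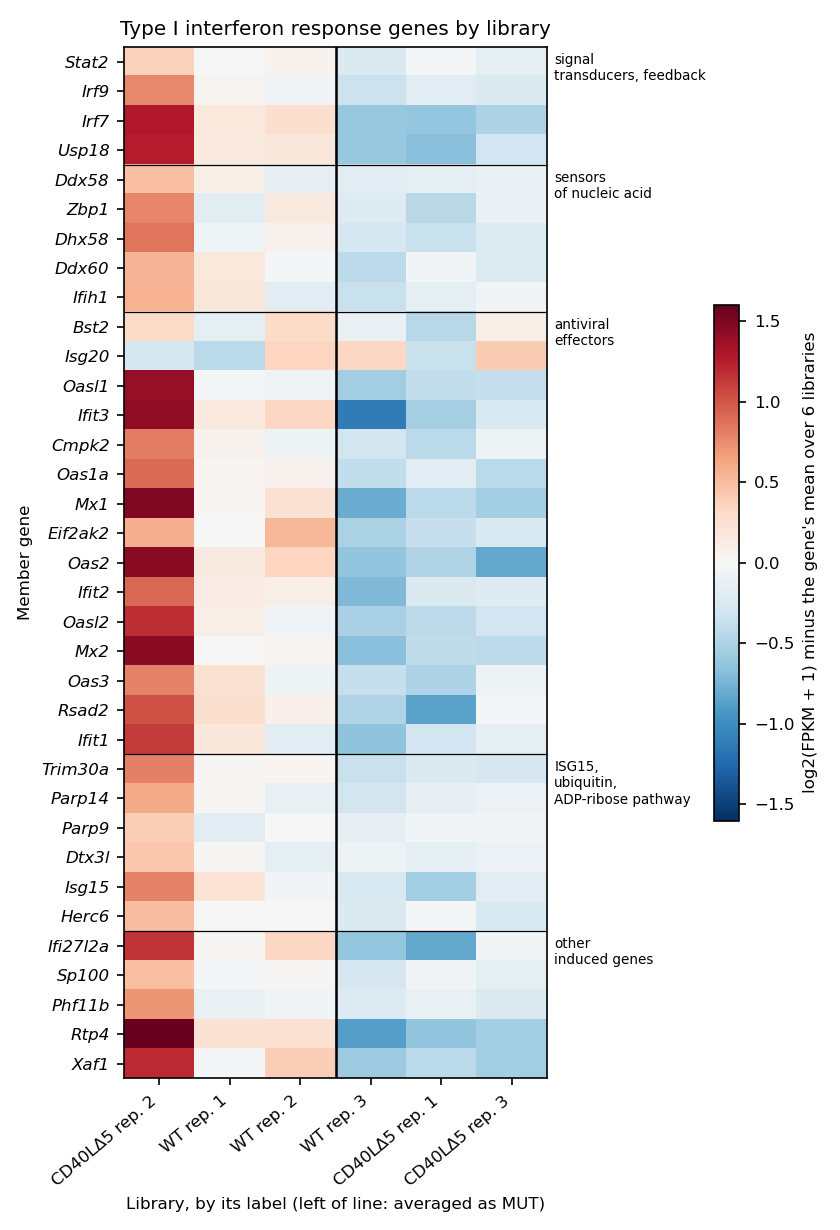
Deviation of each tested member (rows, 35 genes in 5 roles) from its own mean over the 6 libraries (columns), in log2(FPKM + 1), red above and blue below the mean. The column of CD40LΔ5 replicate 2 is red for every row but Isg20, and the 3 columns right of the line, averaged as WT in the deposited table, are blue for most rows.

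The genes differed in level and in how far they ranged. FPKM is per length, so levels can be compared between genes: Ifi27l2a, a small interferon-induced protein, had the highest mean (369.8 FPKM), Sp100, a nuclear body protein, the next (136 FPKM) and Bst2 the third (58.3 FPKM). The lowest tested member was Ifih1 at 1.30 FPKM. Ratios of the highest to the lowest library ran from 1.52 (Parp9) to 7.79 (Rsad2) among tested members, with a median of 2.82 over all 37. Genes of lower level tended to have the larger ratio (Spearman's rho -0.64 over the 35 tested genes, which share the 6 libraries and their depth). By role, the median of CD40LΔ5 replicate 2 over the mean of the 3 libraries averaged as WT was 3.92 for the antiviral effectors and 3.40 for the other induced genes. It was 2.95 for signal transducers and feedback, 2.12 for sensors and 1.72 for the ISG15, ubiquitin and ADP-ribose pathway.

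Several members are neighbours in the genome, and coordinates here are those of the files, which are GRCm38. Ifit2, Ifit3 and Ifit1 lie on chromosome 19 between 34550694 and 34650009, Oas2, Oas3 and Oas1a on chromosome 5 between 120730333 and 120907521, Oasl2 and Oasl1 on the same chromosome between 114896936 and 114937915, and Mx1 and Mx2 on chromosome 16 between 97447035 and 97560900. The library kit does not mark the strand, and the counting rule is not given in the sources used here. Reads of overlapping genes cannot be told apart within the overlap, and 9 members overlap another listed gene. Parp9 overlaps Dtx3l (682 bases) and the antisense Gm15564 (5854 bases), Irf7 Phrf1 (45 bases), Irf9 Rnf31 (123 bases) and Dhx58 the antisense Dhx58os (2637 bases). Cxcl10 lies within Art3 over all its 2252 bases, Sp100 overlaps Gm17017 (598 bases), Eif2ak2 Gm26637 (532 bases) and Oasl1 Gm13822 (38 bases). Members of the Ifit, Oas, Mx, Phf11, Trim30 and Ifi27l2 families have near-identical relatives, and their values are uncertain to that extent.

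Values per library below are in FPKM and in the order WT replicates 1, 2 and 3, then CD40LΔ5 replicates 1, 2 and 3. The signal transducers and feedback genes come first. Stat2 (ENSMUSG00000040033), the STAT particular to the type I and III interferon receptors, measured 33.0, 34.1 and 27.7 in the libraries labelled WT and 31.9, 42.7 and 29.3 in those labelled CD40LΔ5. Irf9 (ENSMUSG00000002325), the DNA-binding part of ISGF3, measured 32.6, 30.7 and 24.9, then 27.8, 54.8 and 26.9. Both genes are abundant and moved little among 5 of the libraries. Irf7 (ENSMUSG00000025498, chromosome 7, 141262706 to 141266481, minus strand) measured 19.6, 21.1 and 11.002, then 10.99, 43.6 and 12.02. Usp18 (ENSMUSG00000030107), the protease that removes ISG15 and restrains the receptor, measured 6.99, 7.16 and 3.71, then 3.51, 16.2 and 4.83. For Irf7 and Usp18 the 6 libraries fell at 3 levels, with WT replicates 1 and 2 close together in between. All 4 genes of this role had that order of libraries.

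Of the sensors of nucleic acid, Ddx58, which encodes the RNA sensor RIG-I, was the most abundant, at 32.2, 27.3 and 26.3, then 27.0, 42.2 and 27.7 FPKM. Zbp1, a sensor of Z-form nucleic acid, measured 11.7, 14.95 and 11.4, then 9.47, 23.5 and 12.3. Dhx58, encoding the related LGP2, measured 9.27, 10.3 and 7.84, then 7.41, 18.6 and 8.27. In these 3 genes CD40LΔ5 replicate 2 stood apart while the other 5 libraries differed by less than their distance to it. Ifih1, which encodes the RNA sensor MDA5, measured 1.55, 1.00 and 0.762, then 1.02, 2.30 and 1.17, on 115 to 312 reads. Ddx60, a helicase-like protein linked to RIG-I signalling, had its highest library at 2.63 times its lowest. Only 2 of the 5 sensors had both WT replicates 1 and 2 above the 3 lower libraries, namely Dhx58 and Ddx60.

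The 15 antiviral effectors ranged widely, with a median of 4.31 times from the lowest to the highest library. Ifit3, whose protein works with IFIT1 on foreign RNA, measured 9.36, 10.7 and 3.28, then 5.46, 23.8 and 6.83 FPKM (158 to 1032 reads). Ifit2 measured 4.06, 3.97 and 1.83, then 2.92, 7.71 and 2.998, and Ifit1, which binds viral RNA caps, 1.96, 1.30 and 0.669, then 1.11, 4.70 and 1.35 (49 to 310 reads). In Ifit1 the libraries WT replicate 2 and CD40LΔ5 replicate 3 changed places, so the 3 levels seen for Ifit3 and Ifit2 were not all kept. Mx1, a gene of the dynamin-like GTPase family, measured 4.91, 5.83 and 2.31, then 3.29, 15.1 and 2.97. Its neighbour Mx2, listed in the file as a polymorphic pseudogene, measured 2.85, 2.95 and 1.40, then 1.89, 9.36 and 1.85. Mx2 had the widest gap of CD40LΔ5 replicate 2 to the next library among the members it led, 3.17 times.

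The oligoadenylate synthetases make the second messenger that activates RNase L. Oas2 measured 3.91, 4.66 and 1.88, then 2.20, 11.1 and 1.53 FPKM, and Oasl1, a synthetase-like protein without that enzyme activity, 9.27, 8.96 and 6.07, then 6.92, 26.2 and 7.04. Oas1a, Oas3 and Oasl2 ranged 2.82, 3.47 and 4.39 times from the lowest to the highest library, each with its highest value in CD40LΔ5 replicate 2. Rsad2, encoding viperin, measured 2.56, 2.17 and 1.13, then 0.650, 5.07 and 1.94. Cmpk2, its neighbour on chromosome 12 and a nucleotide kinase, ranged 2.60 times.

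In 3 effectors CD40LΔ5 replicate 2 did not stand apart from the next library. Eif2ak2, encoding the kinase PKR, which halts translation on double-stranded RNA, measured 4.37, 6.67 and 2.76, then 3.11, 6.94 and 3.51 FPKM, so that CD40LΔ5 replicate 2 and WT replicate 2 were nearly equal. Bst2, encoding tetherin, which holds budding virus at the cell surface, measured 51.4, 70.7 and 53.4, then 41.9, 71.3 and 61.5, also with these 2 libraries level. Isg20, a nuclease that degrades single-stranded RNA, measured 19.9, 34.6 and 34.2, then 20.9, 22.0 and 36.0. Isg20 was thus high in WT replicates 2 and 3 and CD40LΔ5 replicate 3 and low in the others, including the library that led the other members. The plasma cell gene Igj, which encodes the J chain of secreted antibody, was high in the same 3 libraries (3627, 3523 and 3495 FPKM) and lay at 816, 1404 and 653 FPKM in WT replicate 1, CD40LΔ5 replicate 1 and CD40LΔ5 replicate 2. Whether cells of that type carry the Isg20 signal was not tested.

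Genes of the ISG15, ubiquitin and ADP-ribose pathway ranged less than the effectors, by a median of 1.86 times. Isg15 (ENSMUSG00000035692), the modifier itself, measured 12.6, 10.4 and 8.92, then 7.06, 19.4 and 9.45 FPKM. Trim30a, a ubiquitin-ligase family protein of the mouse, measured 47.0, 47.4 and 36.0, then 39.3, 81.9 and 38.2. Both had all of CD40LΔ5 replicate 2 and WT replicates 1 and 2 above the other 3. Parp14 measured 20.7, 18.7 and 16.5, then 18.5, 31.4 and 19.0. Parp9 measured 16.99, 19.5 and 17.5, then 18.8, 25.8 and 18.7, and Dtx3l, the ubiquitin ligase that pairs with PARP9, 15.8, 13.96 and 14.6, then 13.99, 21.2 and 14.5. In Parp9 and Dtx3l the 5 libraries other than CD40LΔ5 replicate 2 lay close together with no split by label or by table. Herc6, the ligase that attaches ISG15 in mice, ranged 1.81 times and was also highest in CD40LΔ5 replicate 2.

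Among the other induced genes, Ifi27l2a measured 337, 420.0 and 216, then 188, 736 and 322 FPKM. Sp100 measured 132, 136 and 112, then 129.8, 188 and 120.02, and Phf11b 42.6, 44.5 and 39.5, then 42.1, 75.2 and 38.9. Ifi27l2a spanned 3.91 times while Sp100 and Phf11b spanned 1.68 and 1.93 times. Rtp4 (ENSMUSG00000033355, chromosome 16, 23609919 to 23614222, plus strand), a receptor-transporting protein induced by interferon, measured 9.31, 9.36 and 3.76, then 4.68, 25.2 and 5.04. Xaf1, a proapoptotic interferon target, measured 7.21, 9.91 and 4.54, then 5.17, 18.0 and 4.64. In Rtp4 the values within each of the 3 levels differed by less than the gaps between levels. Ifi44 measured 0.212, 0.192 and 0.0624, then 0.145, 0.594 and 0.0971 FPKM on 7 to 60 reads. The chemokine gene Cxcl10, which draws in CXCR3-bearing lymphocytes, measured 0.573, 0.338 and 0.199, then 0.235, 0.552 and 0.459 FPKM on 6 to 16 reads, and its order is limited by counting at that depth.

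**Figure D3:**
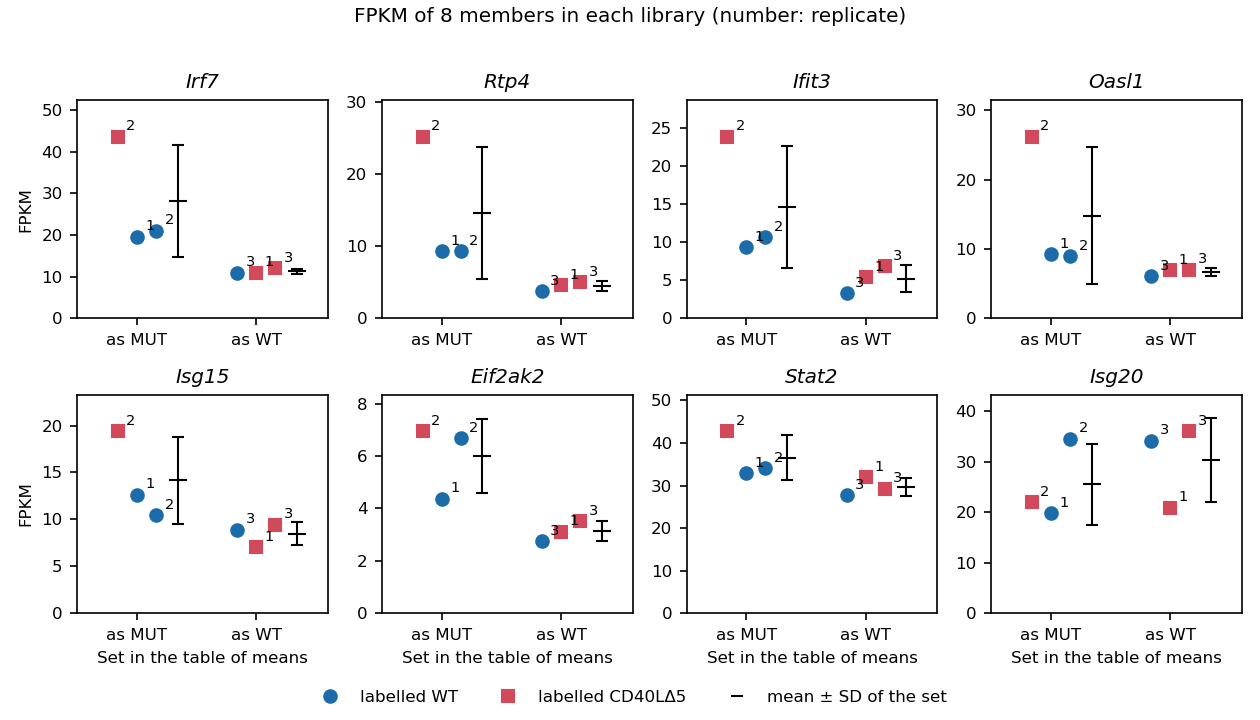
FPKM of 8 members in each library, placed by the set in which the deposited table of means averages it. Circles are libraries labelled WT, squares those labelled CD40LΔ5, numbers are replicates, and bars are the mean ± SD of each set (n = 3). In Irf7, Rtp4, Ifit3, Oasl1, Isg15, Eif2ak2 and Stat2 the sets do not overlap, and in Isg20 they do.

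The series' design sets CD40LΔ5 against WT, and by the labels no member differed beyond the spread between replicates. In limma on log2(FPKM + 1), adjusted by Benjamini-Hochberg over all 11252 genes with a threshold of 0.05, 0 members and 0 genes (0% of those tested) passed. At an unadjusted p under 0.05, 0 members were higher and 0 lower, against 0.915% and 0.32% of all tested genes, and voom on the recovered reads gave 0 members at either level. The mean was higher in the libraries labelled CD40LΔ5 for 32 of 35 members, against 55.5% of all tested genes, with a median log2 difference of 0.19 against 0.01 over all tested genes. In no member did the groups separate, against 2.98% of tested genes with all 3 libraries labelled CD40LΔ5 higher and 1.32% with all 3 lower.

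The higher means rested largely on 1 library. Irf7 had means of 22.2 ± 18.5 FPKM for CD40LΔ5 and 17.2 ± 5.44 FPKM for WT (SD, n = 3; log2 difference 0.12 ± 0.52 SE), and Isg15 11.96 ± 6.54 and 10.7 ± 1.87 FPKM (0.05 ± 0.33). Ifit1 had 2.39 ± 2.01 and 1.31 ± 0.646 FPKM (0.44 ± 0.41), and Oasl1 13.4 ± 11.1 and 8.10 ± 1.76 FPKM (0.42 ± 0.48). In all 4 the SD of the CD40LΔ5 group exceeded the difference of the means. Without CD40LΔ5 replicate 2 only 3 of 35 members had the higher mean in CD40LΔ5 and the median fell to -0.18. Without WT replicate 3 the count was 22 and the median 0.06. Parp9 had the smallest unadjusted p of the members (0.18; log2 difference 0.21 ± 0.14), and Isg20 was among the 3 with a lower mean (-0.16 ± 0.28). For Ifi44 and Cxcl10, below the level of the fit, a two-sided exact permutation test comparing mean FPKM gave p = 0.8 each (n = 3 and 3), where the smallest possible is 0.1.

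By the deposited table, the libraries averaged as MUT were higher for nearly all members, but none passed the test. In the same limma fit 0 of 35 members passed at an adjusted p of 0.05, against 3 of all tested genes (0.0267%). At an unadjusted p under 0.05, 22 members were higher and 0 lower, against 9.39% and 3.61% of all tested genes, and voom gave 0 members passing and 20 at an unadjusted p under 0.05. The mean was higher for 34 of 35 members, against 62% of all tested genes, with a median log2 difference of 0.64 against 0.05. In 25 of 35 members all 3 libraries averaged as MUT lay above all 3 averaged as WT, which held for 12.1% of all tested genes, and the reverse held for 0 members and 4.79% of genes. Under this grouping as under the other, CD40LΔ5 replicate 2 weighed on the size: without it 33 of 35 members were still higher, 19 at an unadjusted p under 0.05, and the median was 0.37.

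By role, all 4 signal transducers and feedback genes were higher in the MUT set at an unadjusted p under 0.05. The counts of each role stand beside 62% of all tested genes that were higher and 9.39% that were so at that level. Members were measured in the same libraries, so these counts are not independent of one another. Irf7 had means of 28.1 ± 13.4 and 11.3 ± 0.589 FPKM (SD, n = 3), which is a log2 difference of 1.15 ± 0.28 (SE; adjusted p = 0.343 by limma), and Usp18 10.1 ± 5.25 and 4.02 ± 0.708 FPKM (1.06 ± 0.30). Stat2 and Irf9 differed by 0.29 ± 0.12 and 0.51 ± 0.21. Irf7 and Usp18 thus showed the larger differences of the role with CD40LΔ5 replicate 2 far above the other 2 libraries of the MUT set. Of the sensors, 5 of 5 were higher and 2, Dhx58 (0.58 ± 0.23) and Ddx60, at an unadjusted p under 0.05. Ddx58 differed by 0.29 ± 0.15 and Zbp1 by 0.51 ± 0.23.

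Of the antiviral effectors, 14 of 15 were higher and 11 at an unadjusted p under 0.05. Eif2ak2 had the smallest p of the members (0.00296), with 5.99 ± 1.41 against 3.13 ± 0.378 FPKM (log2 difference 0.74 ± 0.17; limma adjusted p = 0.343). Oas2 had 6.55 ± 3.95 against 1.87 ± 0.335 FPKM (1.28 ± 0.32), Ifit3 14.6 ± 7.99 against 5.19 ± 1.79 FPKM (1.26 ± 0.36) and Mx1 8.62 ± 5.66 against 2.86 ± 0.50 FPKM (1.18 ± 0.36). Eif2ak2 had a smaller difference than these 3 and a smaller standard error. Oasl1 differed by 0.88 ± 0.37 and Bst2 by 0.30 ± 0.18. Isg20 was the only tested member with a lower mean in the MUT set, 25.5 ± 7.94 against 30.4 ± 8.26 FPKM (-0.25 ± 0.26).

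In the ISG15, ubiquitin and ADP-ribose pathway 6 of 6 were higher and 2, Isg15 (14.2 ± 4.66 against 8.47 ± 1.25 FPKM, 0.64 ± 0.22) and Trim30a (0.57 ± 0.21), at an unadjusted p under 0.05. Parp9 differed by 0.15 ± 0.14, and by -0.01 without CD40LΔ5 replicate 2. Of the other induced genes 5 of 5 tested were higher and 3 at that level: Rtp4 with 14.6 ± 9.18 against 4.49 ± 0.663 FPKM (1.37 ± 0.35), Xaf1 (1.05 ± 0.28) and Ifi27l2a (0.99 ± 0.32). Rtp4 had the largest difference of the tested members on that scale, where the added 1 FPKM makes changes of weakly expressed genes look smaller. Sp100 differed by 0.32 ± 0.15. Ifi44 had an exact permutation p of 0.1, the smallest possible with 3 against 3, and Cxcl10 one of 0.2.

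**Figure D4:**
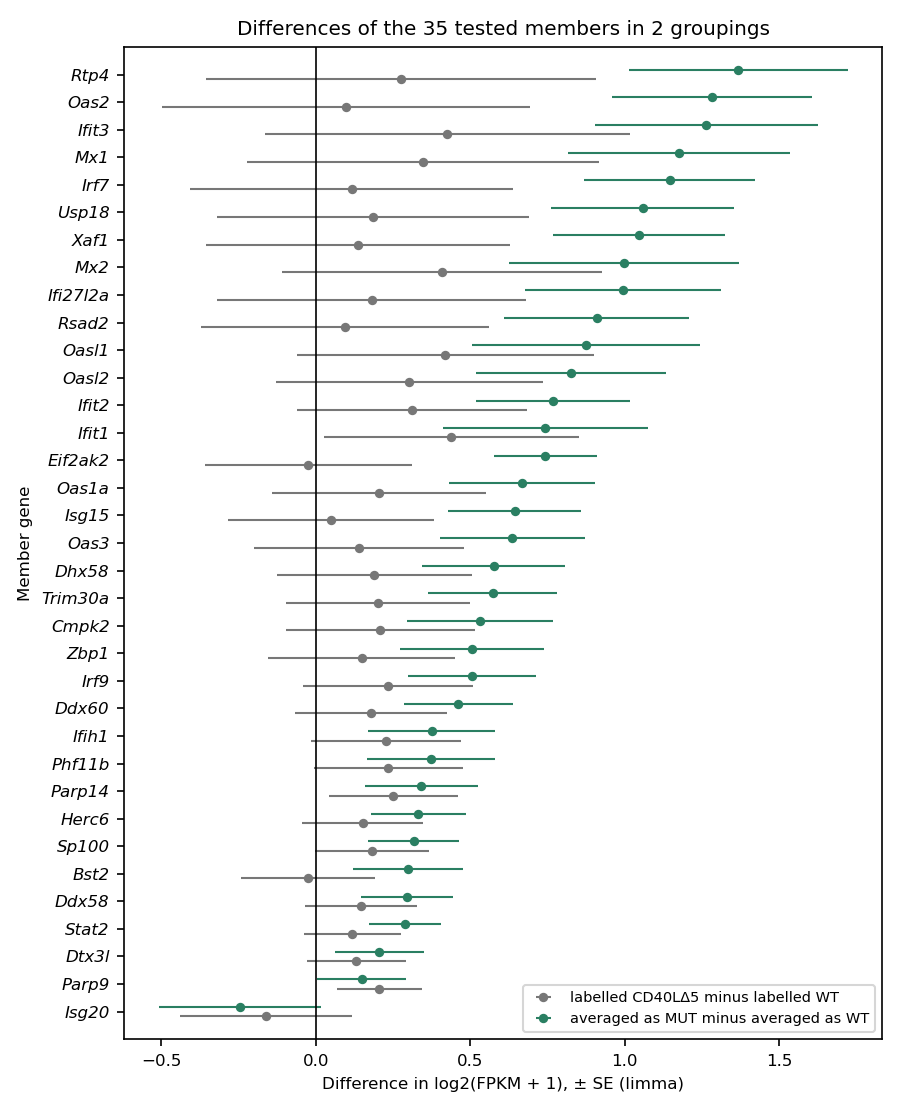
Log2 difference of mean log2(FPKM + 1) with its limma standard error for each tested member (35 rows), by the labels (grey, CD40LΔ5 minus WT) and by the deposited table of means (green, MUT minus WT). The green points lie above 0 for all but Isg20, with Rtp4 at 1.37, and the grey points lie nearer to 0 for all but Parp9, which is at 0.21 by the labels and 0.15 by the table.

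Genes that stand before the members in the pathway were measured too. Of 21 interferon ligand genes, 19 were listed at 0 in all 6 libraries, and Ifng and Ifnk had at most 7 reads in any library. The counts below stand beside 62% of all tested genes that were higher by the table and 55.5% by the labels. Receptor and kinase genes were expressed at similar levels throughout, with Ifnar1 at 28.7 to 35.1 FPKM and Jak1 at 103 to 132 FPKM. Among 8 tested receptors and kinases, 6 were higher by the table (median 0.05) and 7 by the labels (median 0.03). None passed in limma, and 1 by the table and 0 by the labels had an unadjusted p under 0.05. Of 19 tested genes of interferon sensing 13 were higher by the table (median 0.05) and 12 by the labels (median 0.02). At an unadjusted p under 0.05, 3 were higher and 1, Ticam1, lower by the table, and 0 either way by the labels. Tlr7, the endosomal receptor for single-stranded RNA, was among the 13 higher by the table. It measured 16.4, 14.8 and 11.3, then 12.9, 23.5 and 12.9 FPKM, again highest in CD40LΔ5 replicate 2. Of 14 genes that restrain interferon signalling 7 were higher by the table (median -0.02) and 12 by the labels (median 0.08). Among these 14, 0 were higher and 1, Pias1, lower at an unadjusted p under 0.05 by the table, and 0 either way by the labels.

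Interferon-stimulated genes outside the 37 were mostly higher in the MUT set as well, with a smaller median. Of 72 tested genes 69 were higher in the MUT set, 30 at an unadjusted p under 0.05, with a median of 0.32. By the labels 52 were higher, with a median of 0.07, and 0 passed in either grouping (0 at an unadjusted p under 0.05 by the labels). Ly6a, a surface marker induced by interferon, measured 329, 322 and 181, then 187, 378 and 233, so that its MUT set was 0.78 ± 0.13 higher on the log2 scale (limma adjusted p = 0.272). AW112010 measured 48.98, 42.7 and 29.6, then 26.0, 47.0 and 30.8, with WT replicate 1 and not CD40LΔ5 replicate 2 highest. Among 15 tested interferon-gamma GTPases and targets, 14 were higher by the table (4 at an unadjusted p under 0.05; median 0.37) and 13 by the labels (median 0.12). Irgm1, one of these GTPases, measured 16.99, 14.1 and 13.1, then 13.98, 28.6 and 12.6 FPKM.

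By the table, markers of other cells moved with the members in part. In bulk RNA, fewer cells of a type and less RNA per cell cannot be told apart. The B cell markers themselves were higher by the table in 12 of 12 (2 at an unadjusted p under 0.05, median 0.11). By the labels 9 of these 12 were higher (median 0.03). The 10 natural killer cell markers summed to 52.8 to 62.03 FPKM in the MUT set and 24.7 to 36.7 FPKM in the WT set of the table, with 9 of 9 tested genes higher (6 at an unadjusted p under 0.05), and Gzma, a granule protease, measured 22.6, 21.8 and 9.16, then 6.41, 21.9 and 9.77. These 3 MUT libraries were level for Gzma, whereas the members were highest in 1 of them, CD40LΔ5 replicate 2. Of the 10 natural killer cell markers, 5 were highest in that library too. The median deviation of the 9 tested ones was 0.44 there, against 0.33 and 0.22 in WT replicates 1 and 2. The 20 monocyte and macrophage markers found summed to 593 to 866 FPKM against 483 to 591 FPKM (15 of 15 tested higher), highest in WT replicate 1, and 0 of the 20 were highest in CD40LΔ5 replicate 2. Siglech, a defining marker of plasmacytoid dendritic cells, the main producers of interferon alpha, measured 1.21, 5.18 and 0.488, then 0.528, 1.54 and 1.76 FPKM and was highest in WT replicate 2. Of all tested genes 30.1% were highest in CD40LΔ5 replicate 2. So were 2 of the 16 markers of plasmacytoid dendritic cells, both among the 9 tested. These were Klk1 and Il3ra, at 19.99 and 10.4 FPKM there, against 1.43 to 7.74 FPKM and 6.20 to 9.41 FPKM in the other libraries. The 16 markers of that cell type summed to 1137 to 1491 FPKM against 1052 to 1148 FPKM (6 of 9 tested higher), mostly from Ly6d and Spib, which B cells also express. The plasma cell markers summed to 1176 to 5101 FPKM in the MUT set and 2161 to 4948 FPKM in the WT set (0 of 9 tested higher). Neutrophil markers summed to 327 and 594 FPKM in WT replicate 3 and CD40LΔ5 replicate 3, where the members were low. In CD40LΔ5 replicate 1, where the members were low too, they summed to 57.5 FPKM, the least of all libraries. Sums in the MUT set were 84.8 to 115 FPKM, and 8 of 9 tested neutrophil genes were lower there (3 at an unadjusted p under 0.05; median -1.38). The 8 erythroid markers found were higher in the MUT set (8 of 8 tested, 0 at an unadjusted p under 0.05; median 0.54), with sums of 704 to 911 FPKM against 282 to 1002 FPKM. By the labels, where 32 of 35 members and 55.5% of all tested genes were higher, 2 of 9 natural killer cell and 0 of 15 monocyte and macrophage genes were. So were 3 of 9 plasmacytoid dendritic cell, 0 of 8 erythroid, 0 of 9 plasma cell and 9 of 9 neutrophil genes tested. T cell genes were higher in 9 of 11 by the table and 2 of 11 by the labels, conventional dendritic cell genes in 4 of 6 and 1 of 6. The part of these cells in the differences of the members was not tested.

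**Figure D5:**
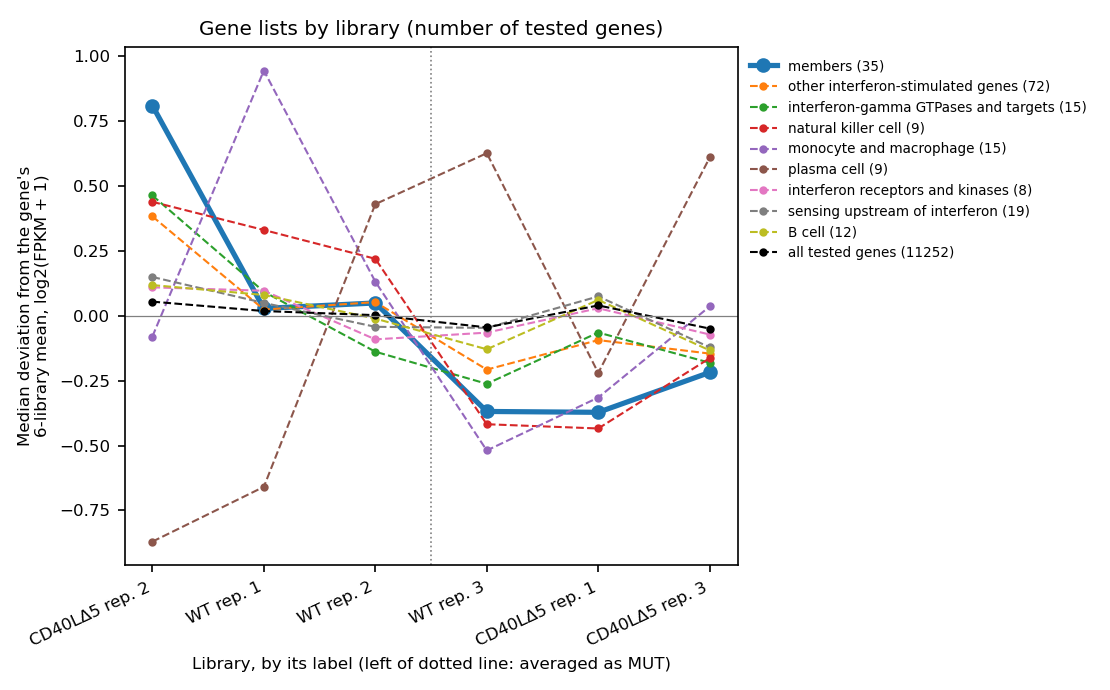
Median deviation of each gene list from its genes' means over the 6 libraries, in log2(FPKM + 1), by library. Lists give their number of tested genes. The members (thick line) reach 0.81 in CD40LΔ5 replicate 2 and lie near 0 in WT replicates 1 and 2, natural killer cell genes fall more evenly over those 3 libraries, and all tested genes lie between -0.050 and 0.054.

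Genes outside the list with the most similar profile were sought by Pearson's r with the mean profile of the members over the 6 libraries, which describes these libraries only. The 12 closest non-members included BC094916, at 13.1, 11.8 and 8.23, then 8.54, 25.6 and 10.3 FPKM, and Pyhin1, a gene of the interferon-inducible HIN family, at 101, 96.7 and 82.7, then 89.2, 139.6 and 87.3 FPKM. Trim12c and Ogfr, which stand in the list of other interferon-stimulated genes, were also among them, with Trim12c at 39.1 FPKM in CD40LΔ5 replicate 2 and 21.4 to 26.9 FPKM elsewhere. The other 8 were Kif19a, Qrfp, Cog4, C030013D06Rik, Gm16464, Reep2, 9430016H08Rik and Gm12188, with means of 1.04 (Qrfp) to 12.7 FPKM (Cog4). The lists held 2 of the 12. Pearson's r takes no account of the size of a change, and Kif19a, the closest of the 12, ran only from 1.58 to 2.15 FPKM. Over all tested genes 297 (2.64%) had an r over 0.9.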

How the data were processed

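Libraries were made from spleen B cell RNA with an Illumina TruSeq RNA kit, per the labels' protocols. CASAVA 1.8.2, STAR, DESeq2 and the build mm9 appear in the submitters' processing notes, which give them no role, but of 35275 genes 24932 have exactly the start and end of GENCODE M21 on GRCm38. How reads were counted is not given in the sources used here. FPKM per gene and library, and a table of FPKM means, are what the authors deposited. With the deposited gene lengths, whole reads were recovered for 100% of the values (tolerance 0.01 reads), 24320080 to 27866611 per library.

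limma 3.58.1 in R 4.3.3 (lmFit, eBayes with trend) was fitted to log2(FPKM + 1), two-sided, for the 11252 genes averaging 1 FPKM or more, adjusted over all of them by Benjamini-Hochberg. The fit was run for the label groups and for the sets of the table of means, without covariates, and was tested on simulated data. Alternatives were another pseudocount (0.1 FPKM), other filters (none, 5 FPKM), median-ratio scaling, no trend, voom with TMM on recovered reads, a replicate block and leaving out each library. The members, lists and tests were chosen with earlier results of these data known. Members get values in every library if among the 3 most abundant of their role, the 12 smallest p of either comparison, or below the level of the fit. From other lists the rule takes genes by smallest p and highest mean, and the 12 non-members closest in profile; Siglech, Klk1, Il3ra and Irgm1 were named after their values were seen.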

Additional observations from a re-analysis of the deposited data

How the results depend on the processing

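No member passed in either grouping under any of the 13 alternatives, and the smallest adjusted p of a member was 0.918 by the labels and 0.167 by the table. By the labels, leaving out 1 library moved the median log2 difference of the members between -0.18 (without CD40LΔ5 replicate 2) and 0.39, and the members with a higher mean between 3 and 34. The log2 difference of Irf7 then ran from -0.50 to 0.45, that of Isg15 from -0.33 to 0.34, that of Ifit1 from -0.014 to 0.70 and that of Oasl1 from -0.17 to 0.72, each lowest without CD40LΔ5 replicate 2 and highest without CD40LΔ5 replicate 1. Without WT replicate 3, Irf7 was at -0.16 and Isg15 at -0.062. By the table, leaving out 1 library kept 33 to 34 members higher, with a median of 0.37 (without CD40LΔ5 replicate 2) to 0.72. Parp9 ran from -0.012 (without CD40LΔ5 replicate 2) to 0.27. Genes passing among all tested genes numbered 3, and 5 with a pseudocount of 0.1 FPKM, 1 without a filter, 0 with a filter of 5 FPKM, and 1 to 16 when 1 library was left out (1 without CD40LΔ5 replicate 2, 13 without WT replicate 2, 16 without CD40LΔ5 replicate 1).

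Deviations of same-numbered libraries from the means of their label groups correlated at -0.385, 0.0578 and 0.376. Those of differently numbered libraries ran from -0.634 to 0.564. Because the label groups are themselves in doubt, these values cannot settle whether the replicate numbers pair the libraries. With a replicate block by the table, 0 genes passed, 33 members were higher with a median of 0.37, none at an unadjusted p under 0.05, and Parp9 was -0.14. Only replicate 1 is split between the sets of the table, so that fit rests on 1 pair. By the labels the block left 32 members higher and 0 called. Depth limits Cxcl10 and Ifi44, with at most 16 and 60 reads.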
